A study of Mus musculus with 9 samples.

Results

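Mitochondrial ribosomal protein genes were followed in mouse embryonic stem cells in which Phf5a or Paf1 had been knocked down. The genes were taken by symbol, as every gene whose name on the array platform starts with Mrpl (large subunit) or Mrps (small subunit), with 1 row per gene. They number 71 of 22180 genes measured, 43 Mrpl and 28 Mrps. Where a gene had several probe sets, the one with the highest mean over the 9 arrays was kept. That mean includes the knockdown arrays, so that differences between groups could enter the choice. A further 7 genes with such symbols (Mrpl30, Mrpl33, Mrpl41, Mrpl43, Mrpl44, Mrpl53 and Mrps6) were found only on probe sets that list 2 genes and were not analysed here. The 71 genes lie on 17 chromosomes.

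All 9 samples were the Nanog-GFP (NG4) reporter line of 129/Sv embryonic stem cells, a single line kept on gelatin in medium with LIF, which sustains self-renewal. Cells received a pLKO.1 lentivirus with a hairpin against Phf5a (shPhf5a), a hairpin against Paf1 (shPaf1) or a control hairpin (shControl), and each group holds 3 arrays. All groups were selected with puromycin at 2 μg/mL for 72 h. Phf5a is a subunit of the SF3b splicing complex, and Paf1 belongs to a complex that travels with elongating RNA polymerase II. The comparisons ask how the level of each gene differed between a knockdown and the control hairpin, and between the knockdowns.

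Mitochondria keep their own ribosome, which translates the few proteins encoded in mitochondrial DNA, all of them subunits of the respiratory chain and the ATP synthase. Its RNAs come from mitochondrial DNA, but all of its proteins are encoded in the nucleus, made in the cytosol and imported. Many of these proteins have counterparts in bacterial ribosomes, and the others exist only in mitochondria. Promoters of such genes are known for sites of ETS family factors, of NRF1 (nuclear respiratory factor 1) and of YY1.

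Windows around the start sites of 5 members are printed because they carry such motifs at genes that fell in both knockdowns (Mrps27, Mrpl58 and Mrpl22), or belong to genes whose response was unusual among the members (Mrpl49 and Mrpl47). Each holds 100 bases before and 30 bases from the start of transcription on, 5′ to 3′ on the gene's strand, from RefSeq on GRCm38.p6. Capitals mark matches of CCGGAAG (ETS family), GCATGCGC (NRF1), AAGATGG (YY1) and CACGTG (E-box) on either strand. The windows are chr13:99344686-99344815 (plus strand) for Mrps27, chr11:115403652-115403781 (plus strand) for Mrpl58, chr11:58171564-58171693 (plus strand) for Mrpl22, chr19:6057726-6057855 (minus strand) for Mrpl49 and chr3:32736726-32736855 (minus strand) for Mrpl47.
Mrps27: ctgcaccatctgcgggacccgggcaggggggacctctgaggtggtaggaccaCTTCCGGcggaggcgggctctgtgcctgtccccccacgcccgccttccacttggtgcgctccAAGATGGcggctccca
Mrpl58: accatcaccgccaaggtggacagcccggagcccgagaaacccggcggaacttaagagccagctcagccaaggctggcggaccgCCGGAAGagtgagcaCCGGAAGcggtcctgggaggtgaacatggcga
Mrpl22: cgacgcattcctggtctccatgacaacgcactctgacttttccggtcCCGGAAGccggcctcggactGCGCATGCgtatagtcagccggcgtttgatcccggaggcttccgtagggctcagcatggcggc
Mrpl49: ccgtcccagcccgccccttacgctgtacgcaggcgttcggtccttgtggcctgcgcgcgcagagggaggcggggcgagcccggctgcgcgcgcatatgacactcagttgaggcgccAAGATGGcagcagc
Mrpl47: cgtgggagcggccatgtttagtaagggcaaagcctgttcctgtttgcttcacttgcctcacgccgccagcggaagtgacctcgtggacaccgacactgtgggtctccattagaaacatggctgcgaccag
Mrps27 carries an ETS match before the start and a YY1 match just after it, Mrpl58 a pair of ETS matches, and Mrpl22 an ETS match followed by an NRF1 match. The Mrpl49 window holds a YY1 match after the start, and the Mrpl47 window no exact match of the 4 motifs. Only exact letters were searched, and near matches were not marked in any window.

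Promoter windows of 300 bases (250 before and 50 from the start on) were found in RefSeq for 62 of the 71 genes, 68 windows in all, because Mrpl2, Mrpl48 and Mrps16 have several. The ETS motif occurred in 33.8% of these windows, against 8.86% of all 32851 windows and 17.8% of the 11118 windows of genes whose signal exceeded the median of all genes. The YY1 motif occurred in 19.1% of the member windows, against 6.34% of all windows and 7.11% of those of genes above the median. The NRF1 motif occurred in 10.3%, against 2.71% and 5.57%. The E-box occurred in 10.3% of the member windows, against 7.15% of all windows and 10.6% of those of genes above the median. The 7 member windows with an E-box belong to 5 genes, because several windows of Mrpl2 hold one. The GC box (GGGCGG) occurred in 54.4%, against 35.7% and 64.4%, and the CCAAT box (CCAAT) in 39.7%, against 37.4% and 37.9%. Both strands were searched, and 2 pairs of matches of different motifs overlapped in the member windows. The ETS motif was found in 12 of 42 Mrpl windows and 11 of 26 Mrps windows. Median GC content was 58.5% in the member windows, 52.7% in all windows and 61.3% in those of genes above the median. A match describes the letters only and is not evidence of binding.

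Of the samples as a whole, array medians lay between 6.22 and 6.31 log2 units, and the number of arrays limits the precision of every value. Phf5a itself fell by 1.24 log2 units in shPhf5a and Paf1 fell by 1.39 in shPaf1 (limma adjusted p = 0.00024 and 1.7e-06). The crossed pairs passed as well, with changes of -0.57 for Phf5a in shPaf1 and -0.25 for Paf1 in shPhf5a (SE 0.16 and 0.08, adjusted p = 0.018 and 0.027), and no array of these groups overlapped the controls. The part of this in the changes shared by both knockdowns was not tested. Of 8 embryonic stem cell markers, 7 had means above the median of all genes (6.70) in every group, the exception being Dppa5a. Their summed signal (log2) was 14.18 to 14.42 in shPhf5a, 14.16 to 14.17 in shPaf1 and 14.68 to 14.70 in shControl. The summed signal of 7 fibroblast markers was 8.82 to 8.89 in shPhf5a, 9.04 to 9.13 in shPaf1 and 8.90 to 8.94 in shControl, with 2 of the 7 above the median in each and Lum the dimmest. Of 4 macrophage and blood markers 1, the lysosomal gene Cd68, was above the median, and Ptprc was the dimmest in every group. Their summed signal was 9.80 to 10.03 in shPhf5a, 10.52 to 10.83 in shPaf1 and 10.29 to 10.33 in shControl. The part of these markers in the results below was not tested.

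Nearly the whole set was lower in shPhf5a than in shControl. Of 71 members 63 were lower and 0 higher in shPhf5a than in shControl, where 20.7% of all genes were lower and 16.7% higher; among genes above the median level 35.2% were lower. At an unadjusted p under 0.05 limma also found 0 members higher, with 65 lower. The median change of the members was -0.51 log2 units (quartiles -0.72 and -0.39), against -0.03 over all genes and -0.05 over genes above the median level. In 65 members all 3 shPhf5a arrays lay below all 3 shControl arrays, as in 25.9% of all genes. Falls of at least 2-fold were found in 5 members, where 1.22% of all genes had one. In such bulk samples a lower signal from fewer cells of a type and one from less RNA per cell cannot be told apart. The mean signal of 69 members exceeded the median of all genes, and the exceptions were Mrpl27 and Mrps36.

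In shPaf1, set against the same 3 control arrays, 58 of the 71 members were lower and 0 higher. Over all genes 17.8% were lower and 18.0% higher, and among genes above the median level 30.7% were lower. At an unadjusted p under 0.05 limma again found 0 members higher, with 60 lower. The median change was -0.50 (quartiles -0.73 and -0.32), against -0.01 over all genes and -0.02 over genes above the median level. The arrays of the groups lay apart, shPaf1 below, in 61 members, as in 25.0% of all genes. Falls of at least 2-fold were found in 4 members, where 0.978% of all genes had one. Because both knockdowns share the control arrays, their changes are given side by side and not correlated.

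**Figure D1:**
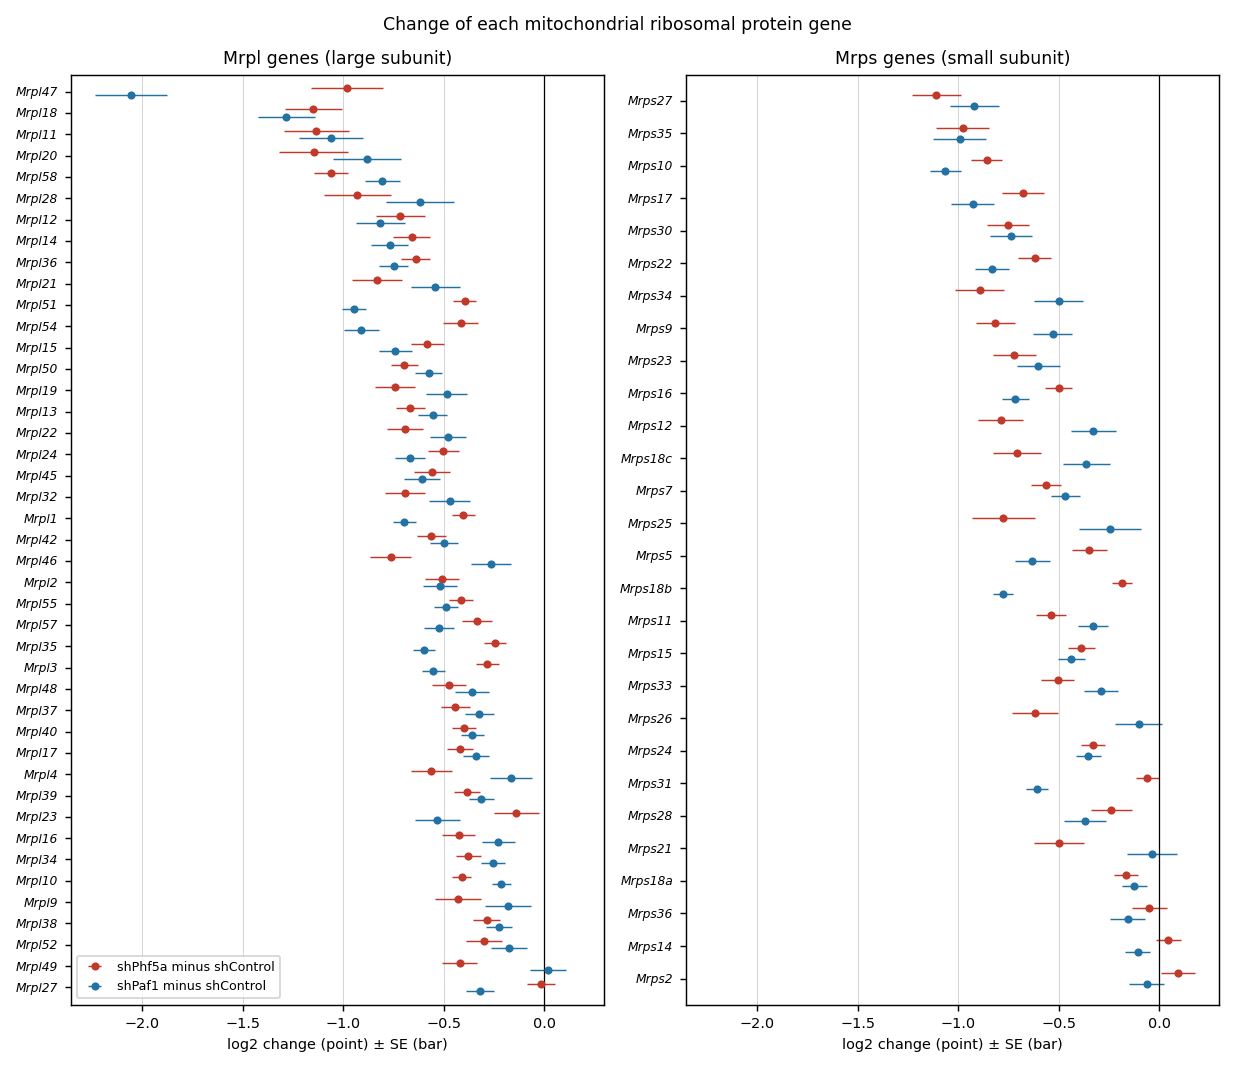
Log2 change against shControl of each of the 43 Mrpl genes (left) and 28 Mrps genes (right), as points with bars of 1 SE, for shPhf5a (red) and shPaf1 (blue), n = 3 arrays per group. Most points lie between -0.2 and -1.2, the shPaf1 value of Mrpl47 lies at -2.06, and 3 points lie above 0 without passing the test.

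The 3 arrays of each knockdown moved the same way. Relative to the shControl mean, the median of the members was -0.64, -0.40 and -0.55 in shPhf5a replicates 1, 2 and 3, and -0.49, -0.52 and -0.53 in shPaf1 replicates 1, 2 and 3. Medians over all genes stayed between -0.04 and 0.00 on these 9 arrays. The mildest change was that of shPhf5a replicate 2, which had the highest value of its group in 65 of 71 members, against 39.1% of all genes. That array also kept the highest Phf5a signal of its group, 11.10 log2 units, against 10.40 and 10.60 in replicates 1 and 3. Without it, 65 members were lower in shPhf5a than in shControl, and the part of the residual Phf5a level was not tested. Among the shPaf1 arrays, replicate 1 was highest in 46 members, against 35.2% of all genes.

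Large and small subunit genes fell to a similar extent. In shPhf5a 41 of 43 Mrpl genes and 22 of 28 Mrps genes were lower, with medians of -0.50 and -0.55. In shPaf1 37 of 43 Mrpl genes and 21 of 28 Mrps genes were lower, with medians of -0.52 and -0.45. Over all genes 20.7% were lower in shPhf5a and 17.8% in shPaf1, and among genes above the median level 35.2% and 30.7%. The Mrps median lay below the Mrpl median on each of the 3 shPhf5a arrays (-0.68, -0.42 and -0.61 against -0.62, -0.36 and -0.55). On the shPaf1 arrays the Mrps medians were -0.33, -0.46 and -0.53 and the Mrpl medians -0.51, -0.53 and -0.52, so that the order was not the same on all of them. The difference of the medians, Mrpl minus Mrps, was 0.05 in shPhf5a and -0.07 in shPaf1, small beside the range within either subunit. Ribosome structures place Mrps18a and Mrps30 in the large subunit, and Mrps36 was later described as a subunit of the 2-oxoglutarate dehydrogenase complex. With those genes placed so, the differences were 0.06 and -0.06. The comparison of subunits is a description, with no test.

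**Figure D2:**
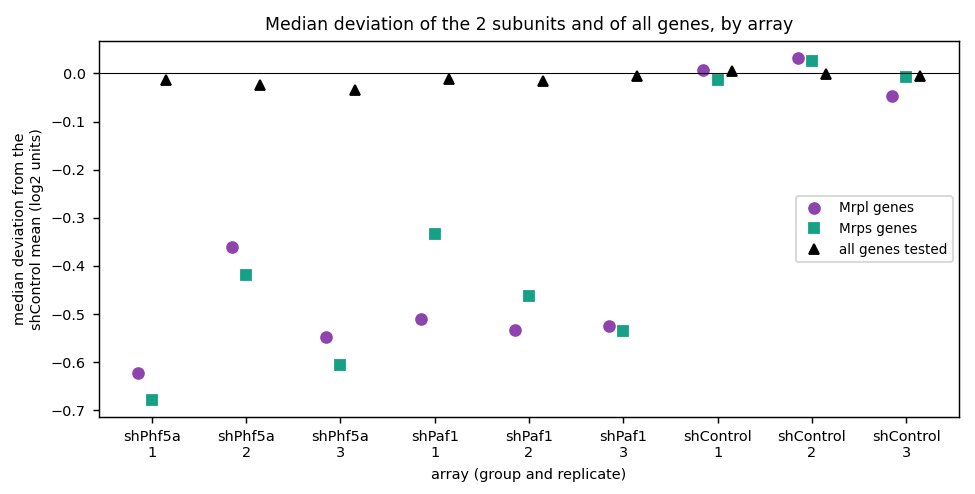
Median deviation from the shControl mean (log2 units, vertical axis) of Mrpl genes (circles), Mrps genes (squares) and all genes tested (triangles) on each of the 9 arrays (horizontal axis). Both subunits lie between -0.33 and -0.68 on the knockdown arrays, and the medians of all genes between -0.04 and 0.00.

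Proteins with and without a bacterial counterpart fell alike in direction. Of 28 large subunit proteins with bacterial counterparts 26 were lower in shPhf5a and 25 in shPaf1 (medians -0.57 and -0.55), and of 15 large subunit proteins specific to mitochondria 15 and 12 (medians -0.42 and -0.36). Of 15 small subunit proteins with bacterial counterparts 12 were lower in shPhf5a and 12 in shPaf1 (medians -0.50 and -0.37). Of 10 small subunit proteins specific to mitochondria the counts were 9 and 8 (medians -0.67 and -0.61). Mrps18a, Mrps30 and Mrps36 were in none of these classes. Of the relatives of bacterial S18, Mrps18c was counted as having a bacterial counterpart and Mrps18b as specific to mitochondria. Around the polypeptide exit tunnel, where the new protein leaves the large subunit, 8 proteins were measured (Mrpl4, Mrpl17, Mrpl22, Mrpl23, Mrpl24, Mrpl39, Mrpl45 and Mrpl47), and 7 were lower in each knockdown. The stalk and its base, which recruit translation factors, were represented by Mrpl10, Mrpl11 and Mrpl12, and all 3 were lower in both. The background for these counts is 20.7% of all genes lower in shPhf5a and 17.8% in shPaf1. Among genes above the median level it is 35.2% and 30.7%.

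Stalk genes spanned a wide range of falls. Mrpl11, the protein at the base of the stalk, had 9.48, 10.27 and 9.88 log2 units in the shPhf5a arrays, 10.07, 9.84 and 9.94 in the shPaf1 arrays, and 11.04, 11.03 and 10.96 in the shControl arrays. The knockdown arrays all lay below the control arrays, with more scatter in shPhf5a. The changes were -1.13 and -1.06 (SE 0.16 each, limma adjusted p = 0.00038 and 0.00052), or 45.6% and 48.0% of the control level. Mrpl12, which forms the flexible stalk, had 9.45, 9.85 and 9.60 in shPhf5a, 9.75, 9.53 and 9.32 in shPaf1, and 10.43, 10.34 and 10.28 in shControl. Its changes were -0.72 and -0.82 (SE 0.12 each, adjusted p = 0.0011 and 0.00047). Mrpl10, which anchors Mrpl12, moved least, with 10.80, 10.89 and 10.78 in shPhf5a, 11.02 on each shPaf1 array, and 11.27, 11.22 and 11.21 in shControl. Its arrays were close within each group, and the 3 shPaf1 values were identical (11.0191 each). Identical values also occurred for Mrpl1 in shPhf5a (8.9095) and Mrpl48 in shPaf1 (6.6953), and they lower the spread behind SE and p. Both changes of Mrpl10, -0.41 and -0.21 (SE 0.05 each), passed the limma test (adjusted p = 0.00012 and 0.0050). The second was not called when the 2 probe sets of Mrpl10 were averaged (-0.16, adjusted p = 0.063).

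Beside Mrpl11, the falls of Mrpl18, Mrpl20 and Mrpl58 were the largest among Mrpl genes in shPhf5a. Mrpl18, the counterpart of bacterial L18, had 8.71, 9.42 and 9.06 log2 units in shPhf5a, 8.93, 8.95 and 8.91 in shPaf1, and 10.21, 10.29 and 10.15 in shControl. The knockdown arrays all lay far below the control arrays. Its changes were -1.15 in shPhf5a (SE 0.14, adjusted p = 0.00018) and -1.28 in shPaf1 (SE 0.14, adjusted p = 7.8e-05). Mrpl20, the counterpart of L20, which binds early in the assembly of the bacterial large subunit, had 8.76, 9.61 and 9.12 in shPhf5a, 9.54, 9.31 and 9.43 in shPaf1, and 10.27, 10.36 and 10.31 in shControl. The shPhf5a arrays were again the more scattered, and the changes were -1.15 and -0.88 (SE 0.17 each, adjusted p = 0.00052 and 0.0024). Falls of Mrpl28 and Mrpl21 were -0.93 and -0.83 in shPhf5a and -0.62 and -0.54 in shPaf1. That of Mrpl28 in shPaf1 (adjusted p = 0.016) was lost without shControl replicate 1 (-0.57, adjusted p = 0.061), shPaf1 replicate 2 (-0.60, adjusted p = 0.053) or shPaf1 replicate 3 (-0.58, adjusted p = 0.056).

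Mrpl58, a peptidyl-tRNA hydrolase that became part of the large subunit and can free stalled ribosomes, had 9.04, 9.35 and 8.99 log2 units in shPhf5a, 9.45, 9.37 and 9.33 in shPaf1, and 10.19, 10.19 and 10.18 in shControl. Its control arrays were nearly identical, and the changes were -1.06 and -0.81 (SE 0.09 each, adjusted p = 1.9e-05 and 6.6e-05). Mrpl15, a bright member with changes of -0.58 and -0.74 (SE 0.08 each), and Mrpl34, with changes of -0.38 and -0.26 (SE 0.06 each), were also lower in both. Mrpl22, a protein of the tunnel wall, changed by -0.69 and -0.48 (SE 0.09 each, adjusted p = 0.00021 and 0.0018). The shPaf1 change of Mrpl34 did not pass after quantile normalization (-0.15, adjusted p = 0.094). Signals of different probe sets are not comparable, and the range from 5.77 (Mrps36) to 11.67 (Mrpl34) of mean signals does not order the transcripts by abundance.

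Mrps27, Mrps10 and Mrps35 were among the 4 Mrps genes with the largest falls in each knockdown, beside Mrps34 in shPhf5a and Mrps17 in shPaf1. Mrps27, a pentatricopeptide repeat protein of a class that binds RNA, had 9.21, 9.81 and 9.42 log2 units in shPhf5a, 9.65, 9.66 and 9.69 in shPaf1, and 10.62, 10.61 and 10.54 in shControl. All knockdown arrays lay below the controls, and the changes were -1.11 and -0.92 (SE 0.12 each, adjusted p = 9.1e-05 and 0.00023). Mrps10, the counterpart of bacterial S10, had 9.29, 9.51 and 9.37 in shPhf5a, 9.19, 9.28 and 9.09 in shPaf1, and 10.24, 10.36 and 10.15 in shControl. Its changes were -0.86 and -1.06 (SE 0.08 each, adjusted p = 3.3e-05 and 7.1e-06). Mrps35, specific to mitochondria, had 7.92, 8.51 and 8.19 in shPhf5a, 8.34, 8.09 and 8.16 in shPaf1, and 9.15, 9.31 and 9.11 in shControl. The knockdown arrays overlapped each other and stayed below the controls, with changes of -0.98 and -0.99 (SE 0.13 each, adjusted p = 0.00030 and 0.00025). Mrps9 and Mrps34 fell by 0.82 and 0.89 in shPhf5a (SE 0.10 and 0.12), and Mrps17 and Mrps22 by 0.93 and 0.83 in shPaf1 (SE 0.11 and 0.08). Changes of the same genes in the other knockdown were -0.53 and -0.50 for Mrps9 and Mrps34 in shPaf1, and -0.68 and -0.62 for Mrps17 and Mrps22 in shPhf5a, all 4 past the test.

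**Figure D3:**
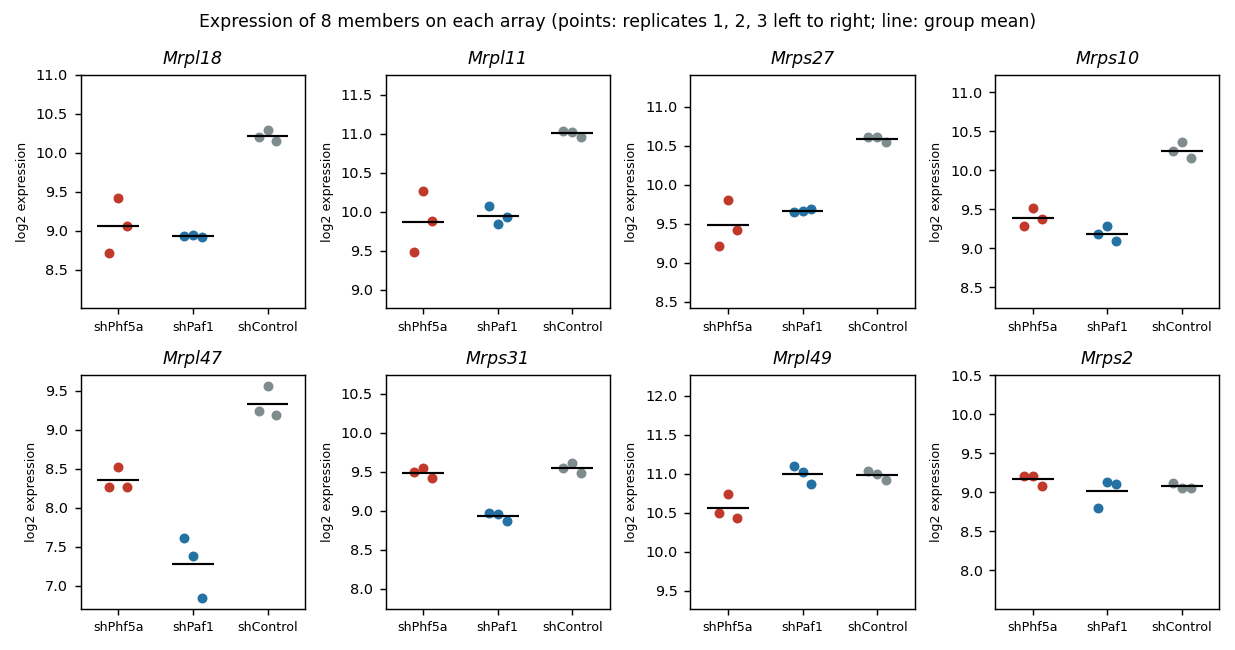
Log2 expression (vertical axes, each spanning 3 units) of 8 members on every array, with replicates 1, 2 and 3 from left to right as points and the group mean as a line, for shPhf5a, shPaf1 and shControl. Mrpl18, Mrpl11, Mrps27, Mrps10 and Mrpl47 are lower on all knockdown arrays, Mrps31 on the shPaf1 arrays, Mrpl49 on the shPhf5a arrays, and Mrps2 overlaps in all groups.

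Mrpl47 stood at the far end in shPaf1. It is the counterpart of bacterial L29, a protein beside the exit of the tunnel, and lies at chr3:32727497-32736755 (GRCm38.p6). Its kept probe set had 8.26, 8.52 and 8.26 log2 units in shPhf5a, 7.61, 7.38 and 6.84 in shPaf1, and 9.24, 9.56 and 9.19 in shControl, so that the 3 groups did not overlap. The change was -2.06 in shPaf1 (SE 0.18, 4.16-fold lower, adjusted p = 1.9e-05) and -0.98 in shPhf5a (SE 0.18, adjusted p = 0.0018). Its second probe set had 8.06, 8.39 and 8.16 in shPhf5a, 8.10, 7.89 and 8.12 in shPaf1, and 8.66, 8.74 and 8.58 in shControl. There the changes were -0.62 in shPaf1 and -0.46 in shPhf5a (SE 0.09 each, adjusted p = 0.00086 and 0.0052 with all probe sets tested). The direction was the same on both probe sets, but the fall in shPaf1 was far larger on the kept one, and which transcript each reads is not given in the sources used here.

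Of the 71 members 9 had 2 single-gene probe sets, and all 18 of these had values below the control in both knockdowns. In shPaf1 sizes differed most for Mrpl47, Mrpl36 and Mrps5. In shPhf5a they differed most for Mrpl47, Mrps18c (-0.709 kept, -0.225 second) and Mrps16 (-0.50 kept, -0.97 second). The second probe set of Mrpl36, the counterpart of bacterial L36, changed by -1.54 in shPaf1 (adjusted p = 8.25e-06), against -0.75 for the kept one. That of Mrps5, the counterpart of S5, changed by -1.21 (adjusted p = 8.4e-05), against -0.63. The second probe set of Mrpl10 passed in neither comparison (its changes were -0.16 in shPhf5a and -0.10 in shPaf1, adjusted p = 0.21 and 0.47), and that of Mrps18c missed the test in shPhf5a (adjusted p = 0.12).

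Some members did not pass in one knockdown or in either. In shPhf5a 8 members did not pass, namely Mrpl23, Mrpl27, Mrps2, Mrps14, Mrps18a, Mrps28, Mrps31 and Mrps36. In shPaf1 13 did not, namely Mrpl4, Mrpl9, Mrpl16, Mrpl46, Mrpl49, Mrpl52, Mrps2, Mrps14, Mrps18a, Mrps21, Mrps25, Mrps26 and Mrps36. Mrps2, the counterpart of bacterial S2, had 9.21, 9.21 and 9.09 log2 units in shPhf5a, 8.80, 9.13 and 9.11 in shPaf1, and 9.12, 9.05 and 9.06 in shControl. The groups overlapped, and the 95% intervals of its changes were -0.10 to 0.28 in shPhf5a and -0.26 to 0.13 in shPaf1. Mrps14, the counterpart of S14, had 7.46, 7.55 and 7.52 in shPhf5a, 7.29, 7.39 and 7.40 in shPaf1, and 7.56, 7.36 and 7.49 in shControl, with intervals of -0.09 to 0.18 and -0.25 to 0.03. Mrps36 and Mrpl27 had the lowest signals of all members, 5.54 to 5.91 and 6.04 to 6.51 over all arrays. Mrps36 passed in neither knockdown, and Mrpl27 fell by 0.32 in shPaf1 only (adjusted p = 0.0048, and -0.02 in shPhf5a with adjusted p = 0.89). Dim probe sets on such arrays tend to understate changes.

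The knockdowns were then set against each other, which uses no control array in the difference. Of 71 members 12 were higher and 9 lower in shPhf5a than in shPaf1, where 12.7% of all genes were higher and 16.3% lower. As shares, 16.9% of the members were higher and 12.7% lower, near those of all genes. Among genes above the median level 20.7% were higher and 27.4% lower, so the members' lower share was below that background. By subunit 8 Mrpl and 4 Mrps genes were higher, and 4 Mrpl and 5 Mrps genes lower. The median difference of the members was -0.06, against -0.02 over all genes. The count on the lower side changed to 26 when shPhf5a replicate 2 was left out. It changed to 5 when either shPhf5a replicate 3 or shPaf1 replicate 1 was left out. The higher side ranged from 9 to 17 over the 9 arrays left out in turn.

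Among members higher in shPhf5a than in shPaf1, Mrps31 and Mrps18b had the smallest adjusted p. Mrps31, specific to mitochondria, had 9.49, 9.55 and 9.43 log2 units in shPhf5a, 8.98, 8.97 and 8.88 in shPaf1, and 9.55, 9.61 and 9.48 in shControl. The shPhf5a arrays overlapped the controls and the shPaf1 arrays below both. The difference was 0.55 (95% interval 0.42 to 0.68, adjusted p = 8.5e-05), and the change against shControl was -0.06 in shPhf5a and -0.61 in shPaf1 (adjusted p = 0.47 and 2.5e-05). Mrps18b is 1 of 3 mitochondrial relatives of bacterial S18, though counted above as specific to mitochondria. It had 11.02, 11.13 and 11.08 in shPhf5a, 10.48, 10.54 and 10.43 in shPaf1, and 11.24, 11.29 and 11.25 in shControl. Its groups did not overlap, and the difference was 0.59 (0.48 to 0.70, adjusted p = 2.6e-05), with 0.43 on its second probe set (adjusted p = 0.0050). Its relative Mrps18c had a difference of -0.35 that did not pass (adjusted p = 0.054), and Mrps18a one of -0.04 (adjusted p = 0.71).

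Mrpl51 and Mrpl54, large subunit proteins specific to mitochondria, fell in both knockdowns and further in shPaf1. Mrpl51 had 8.94, 9.11 and 8.92 in shPhf5a, 8.48, 8.42 and 8.42 in shPaf1, and 9.41, 9.35 and 9.41 in shControl, 3 groups without overlap. Its changes were -0.40 and -0.95 (SE 0.06 each), and the difference was 0.55 (0.42 to 0.68, adjusted p = 0.00012). For Mrpl54 the values were 9.65, 9.82 and 9.71 in shPhf5a, 9.42, 9.16 and 9.11 in shPaf1, and 10.20, 10.19 and 10.04 in shControl, and the difference was 0.50 (0.30 to 0.69, adjusted p = 0.0020). Mrpl35 and Mrpl27 followed with differences of 0.35 and 0.30 (adjusted p = 0.0011 and 0.0085). The difference of Mrpl23, a tunnel exit protein, was 0.39 (adjusted p = 0.024) and was lost without shPhf5a replicate 3 (0.41, adjusted p = 0.056), shPaf1 replicate 2 (0.39, adjusted p = 0.068) or shPaf1 replicate 3 (0.35, adjusted p = 0.086). The differences of Mrps5 (0.28, adjusted p = 0.034) and Mrps16 (0.22, adjusted p = 0.036) were each lost in 9 of 17 alternatives. With all probe sets tested, the second one of Mrps5 differed by 0.75 (limma adjusted p = 0.0021). That of Mrps16 differed by -0.09 and did not pass (adjusted p = 0.81). The second probe sets of Mrpl36 (0.66, adjusted p = 0.0014) and Mrps17 (0.58, adjusted p = 0.034) passed, while their kept ones did not. For Mrpl47 the difference was 1.07 on the kept probe set (0.67 to 1.48, adjusted p = 0.0015) and 0.17 on the second one, which did not pass (adjusted p = 0.27).

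On the other side Mrpl49, Mrpl46 and Mrps26, all specific to mitochondria, were lower in shPhf5a than in shPaf1. Mrpl49 had 10.50, 10.75 and 10.44 log2 units in shPhf5a, 11.10, 11.03 and 10.87 in shPaf1, and 11.04, 10.99 and 10.92 in shControl. The shPaf1 and shControl arrays overlapped and the shPhf5a arrays lay below both, with a difference of -0.44 (-0.64 to -0.24, adjusted p = 0.0042). Mrpl46 had 7.86, 8.08 and 7.79 in shPhf5a, 8.56, 8.34 and 8.34 in shPaf1, and 8.81, 8.71 and 8.51 in shControl, a difference of -0.50 (-0.72 to -0.27, adjusted p = 0.0043). For Mrps26 the values were 8.31, 8.50 and 8.32 in shPhf5a, 9.15, 8.81 and 8.72 in shPaf1, and 8.99, 8.86 and 9.14 in shControl, a difference of -0.52 (-0.77 to -0.26, adjusted p = 0.0073).

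The other differences on the lower side were less secure. That of Mrpl10 was -0.20 (adjusted p = 0.011) and was lost when its 2 probe sets were averaged (adjusted p = 0.15). Mrps12, the counterpart of S12 at the decoding site, differed by -0.46 (adjusted p = 0.012), a call lost without shPaf1 replicate 1 (-0.40, adjusted p = 0.052). Its fall against shControl was -0.79 in shPhf5a (adjusted p = 0.00041) and -0.33 in shPaf1. The second was a weak call (adjusted p = 0.045) that was lost in 6 of the 9 fits without 1 array (adjusted p from 0.051 to 0.14). Mrps21, with 7.43, 7.67 and 8.03 in shPaf1, differed by -0.46 (adjusted p = 0.019) and was lost without shPhf5a replicate 3 (-0.44, adjusted p = 0.065). Mrps25 differed by -0.53 (adjusted p = 0.028) and was lost in 5 fits without 1 array (adjusted p from 0.064 to 0.091), all but shPhf5a replicate 2 of the 6 arrays compared. Mrpl4, a tunnel protein, differed by -0.40 (adjusted p = 0.016), and that call was lost without shPhf5a replicate 3 (adjusted p = 0.055), shPaf1 replicate 1 (adjusted p = 0.063) or shPaf1 replicate 2 (adjusted p = 0.059). Mrps34 differed by -0.39 (adjusted p = 0.036) and passed in only 2 of the 9 fits without 1 array, those without shPhf5a replicate 2 or shPaf1 replicate 3.

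**Figure D4:**
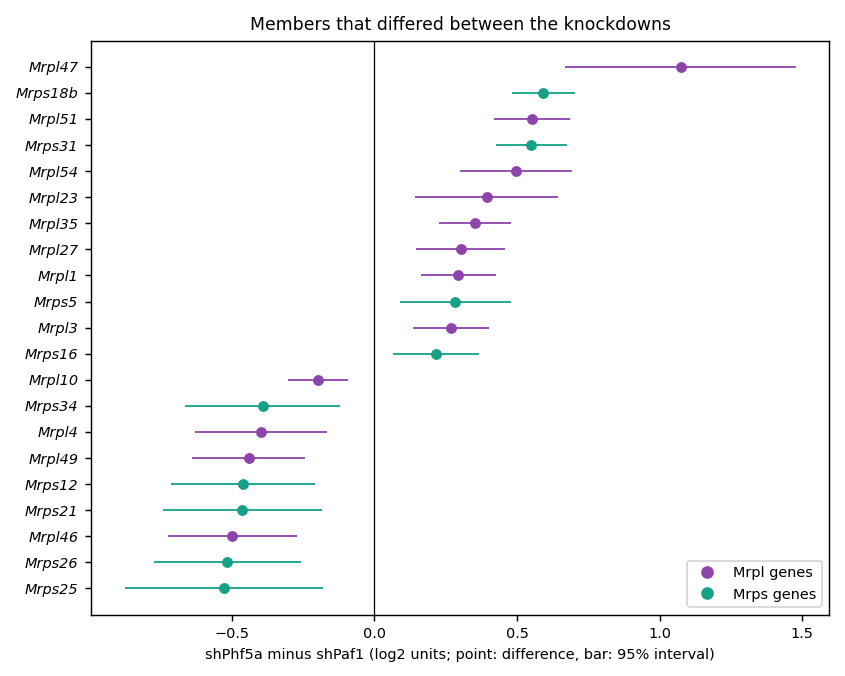
Difference between shPhf5a and shPaf1 (log2 units, horizontal axis, point) with its 95% interval (bar) for the 21 members that passed the test, Mrpl genes in purple and Mrps genes in green, n = 3 arrays per group. The 12 members right of 0 were higher in shPhf5a and the 9 left of 0 lower, and Mrpl47 lies farthest right at 1.07.

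Several members with large falls in both knockdowns had differences that did not pass, unlike Mrpl47 on its kept probe set. The difference of Mrps35 was 0.01 with an interval of -0.28 to 0.31, that of Mrpl11 -0.07 (-0.43 to 0.28), that of Mrpl18 0.13 (-0.18 to 0.45) and that of Mrps27 -0.19 (-0.46 to 0.08). Such intervals leave room for differences of 0.3 to 0.5 units in size. Mrpl20 had -0.26 (-0.65 to 0.12).

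Genes that work with the mitochondrial ribosome were taken from lists chosen by function. Proteins of the ribosome itself with other symbols were represented by Ptcd3, Dap3 and Gadd45gip1. Ptcd3, a small subunit protein with pentatricopeptide repeats, fell by 1.19 in shPhf5a and 0.74 in shPaf1 (SE 0.10 each, adjusted p = 2.5e-05 and 0.00030). Averaged over its probe sets, the changes were -0.81 and -0.76. Dap3, a GTP-binding protein of the small subunit, had 9.25, 9.57 and 9.32 log2 units in shPhf5a, 9.98, 9.95 and 9.94 in shPaf1, and 10.14, 10.12 and 10.13 in shControl. It fell by 0.75 in shPhf5a (adjusted p = 5.3e-05), while the -0.17 in shPaf1 did not pass (adjusted p = 0.10), and the difference was -0.58 (adjusted p = 0.00032). Gadd45gip1, of the large subunit, fell by 0.60 and 0.56 (SE 0.09 each).

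Among 26 assembly factors measured, 19 were lower and 0 higher in shPhf5a and 15 lower and 0 higher in shPaf1, with medians of -0.46 and -0.34. Of all genes 20.7% were lower in shPhf5a and 17.8% in shPaf1, and of genes above the median level 35.2% and 30.7%, which is the background for these lists too. At an unadjusted p under 0.05 limma found 0 of them higher in either. Rbfa, which helps the small subunit RNA mature, fell by 1.06 and 0.66 (SE 0.12 each). Tfb1m, which methylates the small subunit RNA, fell by 0.69 and 0.97 (SE 0.07 each), and Rpusd3, of the pseudouridine synthase family, by 0.92 and 0.84 (SE 0.11 each). Of 15 translation factors 10 were lower and 1 higher in shPhf5a and 9 lower and 0 higher in shPaf1, with medians of -0.38 and -0.26. At an unadjusted p under 0.05 the counts higher were 1 and 0, and the gene higher in shPhf5a was Mtrf1l (0.22, adjusted p = 0.034). The release factor relative Mtrf1 fell by 0.53 and 0.84 (SE 0.07 each) and Guf1, the mitochondrial relative of bacterial LepA, by 0.81 and 0.75 (SE 0.14 each). Gfm2, which takes part in ribosome recycling, fell by 0.62 in shPhf5a (adjusted p = 0.0012) and had -0.26 in shPaf1 (adjusted p = 0.093).

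Median changes of 2 related gene sets, picked by symbol, stand beside those of the members. The 67 genes with symbols of cytoplasmic ribosomal proteins include like-named relatives such as Rps4l, Rpl10l and Rpl22l1. Their medians were -0.21 in shPhf5a and -0.37 in shPaf1. Of them 34 and 53 were lower and 0 higher in either (3 and 0 higher at an unadjusted limma p under 0.05). Over all genes 20.7% and 17.8% were lower, and among genes above the median level 35.2% and 30.7%. The 79 nuclear genes of oxidative phosphorylation had medians of -0.33 and -0.28, with 57 and 43 lower and 1 higher in each, where 16.7% and 18.0% of all genes were higher. Differences between these sets and the mitochondrial ribosomal protein genes were not tested.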

How the data were processed

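Total RNA of 9 samples (125 ng each per the labels, amplified by a whole-transcript protocol) was measured on Affymetrix arrays. The deposited values are log2 expression, 1 per probe set and array, for 33793 probe sets. How the authors normalized them, with which software and in which log base, is not given in the sources used here. The base was taken as 2 because values span 4.35 to 13.7 with near-equal array medians. Under another base each fold would be rescaled while the calls stayed. No slide, scan date or detection call was used here, and batches were not tested.

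Groups and replicate numbers come from sample titles. Separate cultures are not stated, and the p-values therefore reflect only how far these samples varied, possibly for technical reasons. Each target had 1 hairpin group. Off-target effects cannot be told apart from those of the target. No 2 arrays were identical as a whole, though some single genes had the same value on several arrays.

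Gene names are those of the platform annotation. Probe sets with several genes were left out, which removed 13 that list an Mrpl or Mrps gene. All 71 members had the same symbol in RefSeq by gene ID. The test was limma 3.58.1 in R 4.3.3 (lmFit and eBayes), with 1 mean per group over all 9 arrays and Benjamini-Hochberg adjustment over 22180 genes at 0.05. Intervals at 95% come from the same fit. The scripts were tested on simulated data. The titles do not say whether replicate numbers pair the samples, and no pairing was used. Deviations from group means correlated at -0.06 to 0.11 between samples of the same number in different groups. Between samples of other numbers they correlated at -0.18 to 0.10.

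Members and gene lists were chosen with earlier results of these data known, so no test over the list was made. Named members were, per comparison, the 8 largest rises and 12 largest falls among called genes, and the 3 smallest changes, 3 dimmest and 3 brightest, and per related list the 3 called genes with the largest change. Members outside that rule (Mrpl1, Mrpl22, Mrpl36, Mrps5, Mrps16, Mrps18a and Mrps18c, and names in counts) were chosen after their values were seen, as were the promoter windows and motifs. Promoters come from RefSeq (GRCm38.p6). Alternatives are quantile normalization, centring of arrays, a level filter, other handling of probe sets, another variance prior, array weights, fits of 6 arrays, a replicate block, other subunit assignment and leaving out each array.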

Additional observations from a re-analysis of the deposited data

How the results depend on the processing

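Of the counts of members called against shControl, all stayed within 1.5 times of the reported value under every alternative run. Lower calls ranged from 61 to 70 in shPhf5a and from 56 to 65 in shPaf1 over the settings with all arrays (up to 80 probe sets counted), and from 61 to 65 and from 52 to 60 with 1 array left out. Members called higher numbered 0 in every one of these fits for both knockdowns. Between the knockdowns, lower calls numbered 9, with 24 under array weights, 5 when the 6 arrays were fitted alone, and 5 to 26 with 1 array left out. Higher calls numbered 12, with 9 to 16 over the settings and 9 to 17 with 1 array left out. In shPhf5a the Mrpl median minus the Mrps median was 0.0477, with 0.0584 among genes above the median level, 0.0640 over all probe sets, 0.06 with array weights, 0.0609 with subunits as in structures, and 0.0271 to 0.0962 with 1 array left out. In shPaf1 it was -0.07, with -0.11 to -0.03 over the settings and -0.09 to -0.05 with 1 array left out. Between the knockdowns it was -0.07, with -0.08 to -0.06 and -0.10 to -0.03. Since the titles do not say whether replicate numbers pair the samples, the fit with a replicate block serves only as a check. It gave 63 lower members in shPhf5a, 58 in shPaf1, and 12 higher and 12 lower between the knockdowns. Over 17 alternatives, 60 of 63 calls held in all for shPhf5a, 50 of 58 for shPaf1 and 12 of 21 between the knockdowns, leaving aside the fit of all probe sets. Calls lost in shPhf5a were those of Mrpl9, Mrpl52 and Mrps18b, and in shPaf1 those of Mrpl10, Mrpl28, Mrpl34, Mrpl38, Mrps12, Mrps18c, Mrps28 and Mrps33. No called value of a named gene changed sign. The cause of these shifts was not tested. Dim signal limits what can be said of Mrpl27 and Mrps36.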

Other observations

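Enzymes that charge mitochondrial tRNAs were followed as further partners of the ribosome. Of 19 measured, 10 were lower and 0 higher in shPhf5a and 11 lower and 0 higher in shPaf1 by limma, where 20.7% and 17.8% of all genes were lower, and 35.2% and 30.7% of genes above the median level. Of these enzymes 0 were higher at an unadjusted p under 0.05 in either. The medians were -0.19 and -0.28. Rars2, which charges arginine tRNA, had 9.21, 9.62 and 9.35 log2 units in shPhf5a, 8.65, 8.58 and 8.53 in shPaf1, and 9.78, 9.82 and 9.82 in shControl. Its changes were -0.41 and -1.22 (SE 0.09 each, adjusted p = 0.0048 and 7.7e-06), and shPhf5a exceeded shPaf1 by 0.81 (adjusted p = 0.00015). Hars2 and Sars2, for histidine and serine, fell by 0.77 and 0.63 in shPhf5a and by 0.79 and 0.45 in shPaf1.

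Of 12 regulators of mitochondrial transcription, 5 were lower and 1 higher in shPhf5a, and 5 lower and 2 higher in shPaf1. Over all genes 20.7% were lower and 16.7% higher in shPhf5a, and 17.8% lower and 18.0% higher in shPaf1. Among genes above the median level 35.2% were lower in shPhf5a and 30.7% in shPaf1. Of the regulators 41.7% were lower in each knockdown, and 8.33% and 16.7% higher. The counts of higher genes were thus not above the background. The genes higher in shPaf1 were Polrmt and Yy1 (0.29, adjusted p = 0.0017). Tefm, the mitochondrial transcription elongation factor, had 7.78 to 8.23 log2 units in shPhf5a, 7.84 to 8.06 in shPaf1 and 9.03 to 9.13 in shControl. It fell by 1.08 and 1.15 (SE 0.10 each, adjusted p = 4.6e-05 and 2.4e-05). Tfam, which packages mitochondrial DNA, fell by 0.89 and 0.75 (SE 0.16 each). Polrmt, the mitochondrial RNA polymerase, had 9.17, 9.18 and 9.16 in shPhf5a, 9.53, 9.55 and 9.36 in shPaf1, and 8.93, 8.98 and 8.89 in shControl, and rose by 0.23 and 0.54 (SE 0.06 each, adjusted p = 0.0096 and 6.0e-05).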
